A study of Mus musculus with 67 samples.

Results

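The genes of cholesterol synthesis described here are Hmgcs1, Mvd, Idi1, Fdft1, Sqle, Lss, Cyp51 and Insig1. They were chosen by symbol, and all 8 were found among the 26414 genes of the deposited table. The RNA of 67 libraries from C57BL/6 mouse preimplantation embryos, made by SMART-seq2 from polyadenylated RNA, was sequenced. The embryos came from in vitro fertilization with females of 6 weeks and males of 10 weeks. The light group (34 libraries) had received 5000 lx for 6 h at the 2-cell stage, followed by culture in the dark, and the control group (33 libraries) had received no such light. The number of control and light libraries was 7 and 6 in 2-cell embryos, 6 and 8 in 4-cell embryos, 4 and 8 in 8-cell embryos, 13 and 6 in morulae, and 3 and 6 in blastocysts. GEO's sample names give an embryo number for each library, whereas the methods of the study describe single cells picked from dissociated embryos, so that a library of a late stage may stand for only 1 cell of unknown position.

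Cholesterol is built in the cell from acetyl-CoA by way of mevalonate, isoprenoids, squalene and lanosterol. When sterols are low in the endoplasmic reticulum, the transcription factor SREBP-2, encoded by Srebf2, is escorted by Scap to the Golgi, is cut there by the proteases of Mbtps1 and Mbtps2, and raises the transcription of most enzymes of the pathway. When sterols are high, the Insig proteins hold the complex back. Cholesterol is a component of every plasma membrane that the cleaving embryo makes.

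In the order of the pathway, Hmgcs1 (chr13:119690379-119708260) makes HMG-CoA, an early intermediate on the way to mevalonate. Mvd (chr8:122433601-122443422) makes isopentenyl diphosphate by a decarboxylation, and Idi1 (chr13:8885501-8892451) isomerizes it. Fdft1 (chr14:63145150-63179578), squalene synthase, is the first step committed to sterols. Sqle (chr15:59315077-59331192), squalene epoxidase, adds oxygen to squalene and is a rate-limiting enzyme of the pathway. Lss (chr10:76531588-76557138) closes the rings to give lanosterol, and Cyp51 (chr5:4081145-4104746) removes a methyl group from it. Insig1 (chr5:28071363-28078662) is no enzyme but the sterol-dependent brake on SREBP processing, and is itself induced by SREBP. The positions are those of GENCODE M21 on GRCm38, matched by symbol, whereas the processing notes of the submitters name mm9.

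The 250 bases before the RefSeq start (GRCm38.p6) were held for 6 of the 8 genes, Hmgcs1, Mvd, Idi1, Lss, Cyp51 and Insig1. Hmgcs1 and Insig1 are shown because each holds a motif that the other 5 do not. Both were also lower at the 4-cell than at the 2-cell stage, though Hmgcs1 by 2-fold on the deposited scale alone. Capitals mark, on either strand, CCAAT (the letters bound by NF-Y), GGGCGG (a GC box, bound by Sp1), TCACNCCAC (a sterol regulatory element) and CACGTG (an E-box). The stretch of Insig1 stops 50 bases before the RefSeq start, where the annotated gene begins.
Hmgcs1, chr13:119690101-119690350, plus strand: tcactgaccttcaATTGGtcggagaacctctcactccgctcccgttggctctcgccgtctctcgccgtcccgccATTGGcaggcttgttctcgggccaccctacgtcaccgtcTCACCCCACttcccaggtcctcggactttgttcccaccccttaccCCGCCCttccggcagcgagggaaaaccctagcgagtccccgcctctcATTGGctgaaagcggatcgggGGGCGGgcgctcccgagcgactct
Insig1, chr5:28071162-28071362, plus strand: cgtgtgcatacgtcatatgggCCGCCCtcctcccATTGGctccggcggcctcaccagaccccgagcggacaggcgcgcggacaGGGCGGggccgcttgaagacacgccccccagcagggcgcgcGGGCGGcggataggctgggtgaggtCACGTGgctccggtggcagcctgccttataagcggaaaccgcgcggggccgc
CCAAT was found in 6 of the 6 windows and in 33.8% of all 32851 windows of this length, and GGGCGG in 6 of the 6 and in 32.7% of all. TCACNCCAC was found in Hmgcs1 alone of the 6, starting 137 bases before the start, and in 1.05% of all windows. CACGTG was found in Insig1 alone, 101 bases before the start, and in 6.02% of all windows. Of 12 other genes of the pathway with a window, 11 held CCAAT, 10 held GGGCGG, 3 held CACGTG and none held TCACNCCAC. These are matches of letters, and no binding was measured.

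The deposited values are normalised read counts, the reads on a gene over a size factor set per library, and were not divided by length. Total reads per library lay between 836011 and 8551674, of which 54.0% to 89.3% fell on CT010467.1 and Gm42418, loci with sequence of ribosomal RNA, which leaves 318177 to 2867034 reads for all other genes. One read was worth between 0.266 and 3.89 units of the deposited value. The ratio of Gm42418 to CT010467.1 separated control from light libraries without overlap at the 2-cell stage (2.34 to 4.03 against 1.58 to 1.77, exact permutation test, two-sided, p = 0.0012), the 8-cell stage (2.01 to 2.34 against 1.52 to 1.71, exact p = 0.0020) and the morula stage (2.34 to 4.14 against 1.49 to 1.67, exact p = 3.69e-05). It differed with overlap at the 4-cell stage (exact p = 0.00067), and in blastocysts the means were 1.43 and 1.43 (exact p = 1). The labels name no difference in processing that goes with it. At least 10 CPM (reads scaled to the library's reads outside these loci) of Y-linked genes were found in 0 of the 4 control 8-cell, 13 control morula and 3 control blastocyst libraries, and in 3 of 8, 1 of 6 and 6 of 6 light libraries of these stages. P-values measure the spread between libraries, since several may come from 1 embryo. As a check of the stages, 6 markers of 2-cell embryos summed to 320 to 719 in control and 57.4 to 1722 in light 2-cell libraries and to at most 6.57 in control and 162 in light 4-cell libraries. In 8-cell libraries they summed to 36.3 to 264 in control and 0.532 to 54.6 in light. Trophectoderm markers reached 455 to 6789 in blastocysts and 1652 at most before them. At the 4-cell stage 4 of the 14 libraries, control libraries 2, 3, 4 and 6, had a higher median correlation with the light group than with their own. The gap was widest for library 3 (0.844 against 0.788), and the limma calls of the 8 genes at this stage were also made without it. Results for other named genes, and on other scales, are given only with it. Cyp51, Fdft1 and Lss share exon bases with Akap9, Ctsb and 4930483K19Rik, genes of the opposite strand. Reads on the shared bases cannot be told apart unless the counting used strand, which is not given in the sources used here.

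Per kilobase of exon, the level of Insig1 was the highest of the 8 genes at the 2-cell stage, with a median deposited value per kb of 125 in control and 113 in light libraries. Fdft1 followed with 54.5 and 93.9, Hmgcs1 with 31.5 and 37.9 and Sqle with 25.0 and 58.0. Cyp51, Lss, Idi1 and Mvd lay lower, at 8.07, 4.35, 1.58 and 0 in the control libraries. The rank of Lss depended on the length used, 10787 exon bases against 4415 for Cyp51. Before this division its median in the control libraries was 46.9, above the 35.6 of Cyp51. At the 4-cell stage the order had changed, and Fdft1 led with 95.2 in control and 53.7 in light libraries. At the blastocyst stage Insig1 led the control libraries with 22.6, and Fdft1 led the light libraries with 25.6.

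**Figure D1:**
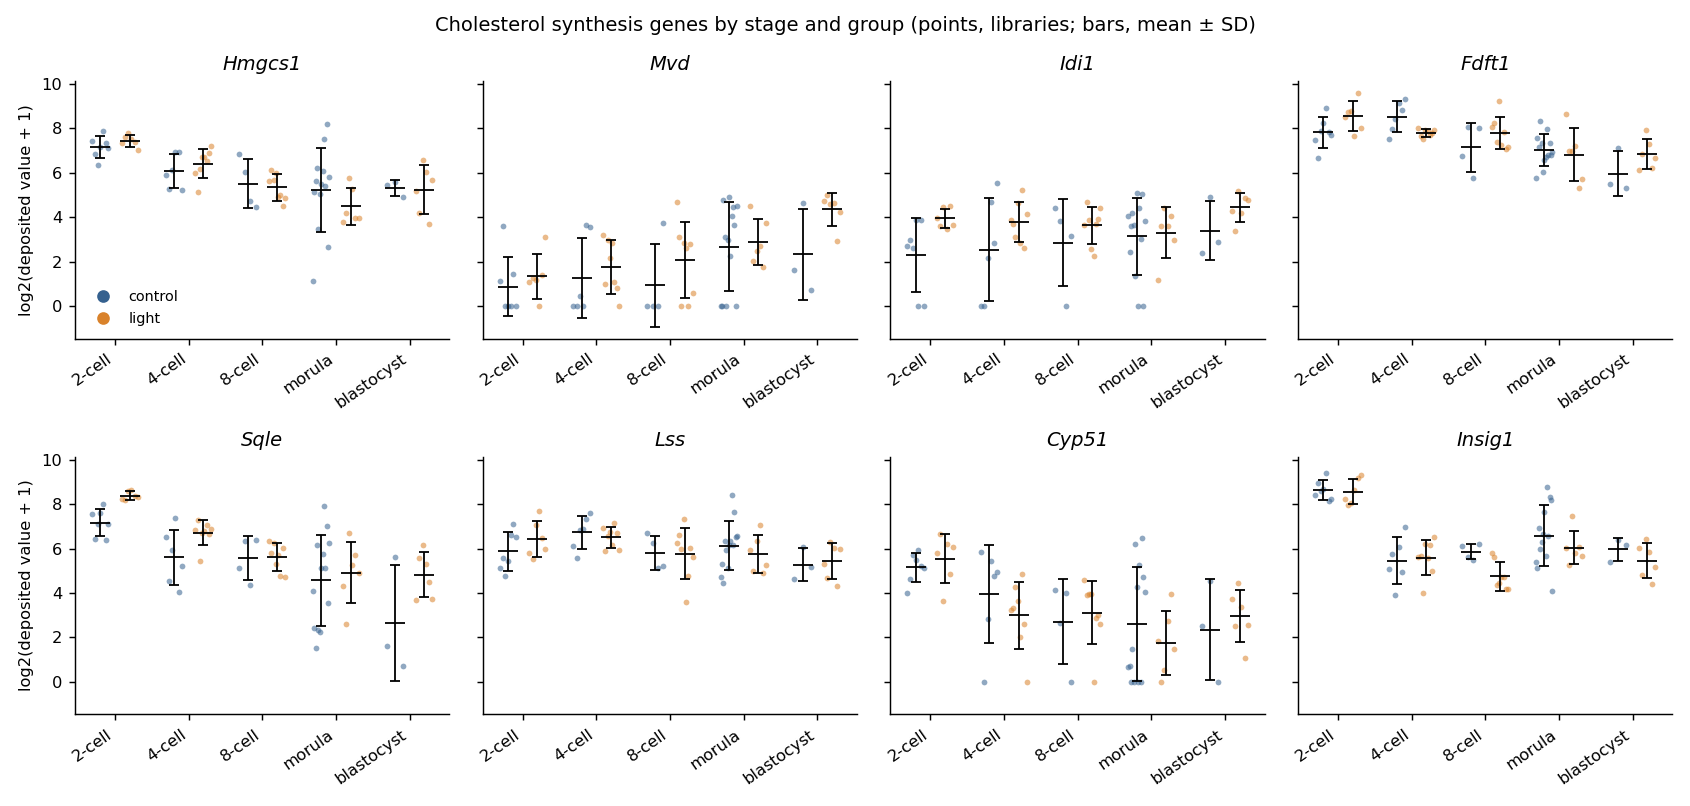
Deposited values on the log2(value + 1) scale of the 8 genes by stage, with each library as a point (blue, control, and orange, light), and with the mean ± SD of each group as black bars. Insig1 lay between 249 and 678 in the 2-cell libraries of both groups and between 14.1 and 124 in the 4-cell libraries, and Mvd was listed at 0 in 4 of the 7 control libraries of the 2-cell stage.

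Light was compared with control at each stage by limma on log2(value + 1), and a gene was called when its Benjamini-Hochberg adjusted p was under 0.05 and its fold change at least 2. At the 2-cell stage 1 of the 8 genes was called, Sqle, and it was higher in the light libraries. Of all 18532 genes tested, 10.5% were called at this stage. The values of Sqle were 83.5 (lowest), 139 (median) and 254 (highest) in the 7 control libraries. In the 6 light libraries they were 289, 322 and 402. The groups did not overlap, which also held for 4.15% of all genes tested. The log2 fold change was 1.22 ± 0.31 (SE), a fold of 2.32 on this scale, with an adjusted p of 0.0093. Sqle remained higher when the reads were scaled to CPM (1.28, adjusted p = 0.0026) or tested by edgeR (1.09, adjusted p = 0.011), and between 1.09 and 1.35 when each library was left out in turn. With 1 fit over all 67 libraries the log2 fold change of 1.22 had an adjusted p of 0.26.

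The other genes were not called at the 2-cell stage. Idi1, the isomerase, lay between 0 and 13.9 in control and between 10.1 and 21.7 in light libraries (log2 fold change 1.65 ± 0.81, adjusted p = 0.20), with 2 of the 7 control libraries at 0. Fdft1 had a median of 230 (101 to 480) in control and 397 (199 to 781) in light libraries (0.73 ± 0.34, adjusted p = 0.17), with wide overlap. Insig1 was the flattest of the 8, with a median of 386 (280 to 678) in control and 349 (249 to 641) in light libraries and a log2 fold change of -0.06 ± 0.29. The remaining differences were 0.54 for Lss, 0.46 for Mvd, 0.39 for Cyp51 and 0.28 for Hmgcs1, with standard errors of 0.46, 0.68, 0.52 and 0.32. The median log2 fold change of the 8 genes was 0.50, and that of all genes tested 0.00. The oocyte markers Bmp15, Oosp1 and Nlrp5 were called lower in the light libraries of this stage, and the summed level of 5 oocyte markers lay between 699 and 1920 in light and between 2248 and 5151 in control libraries. The cumulus marker Tnfaip6 was called higher, and 8 cumulus markers summed to 73.7 to 233 in light and 24.2 to 103 in control libraries, with Fst at 0 in each light library. The ratio of the ribosomal loci separated the groups at this stage too. Their part in the difference of Sqle was not tested.

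**Figure D2:**
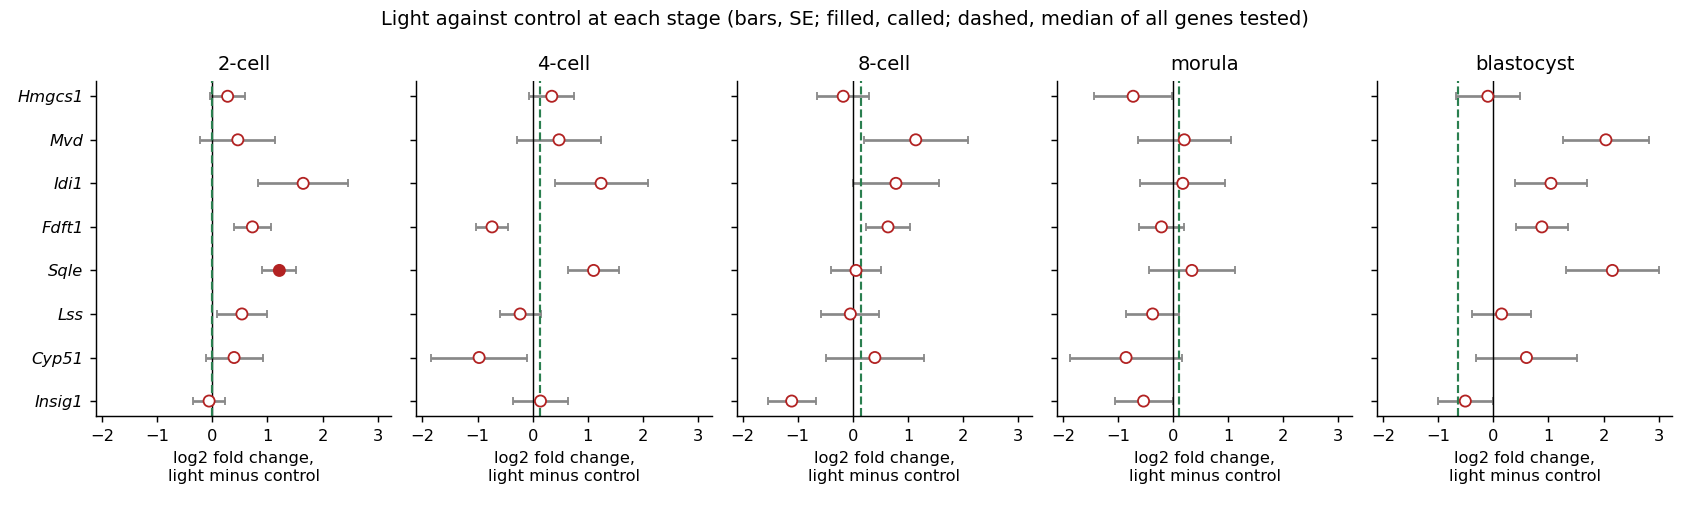
Log2 fold change (light minus control) of the 8 genes at each of the 5 stages, with bars of 1 SE, filled points for called genes and a dashed green line at the median of all genes tested. Sqle at the 2-cell stage (1.22) is the only filled point, and in the blastocysts all 8 points lie to the right of the line at -0.64.

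At the 4-cell stage 0 of the 8 genes were called, against 1.45% of the 15010 genes tested. At an unadjusted p under 0.05 there were 2 of the 8 genes, Sqle and Fdft1, and edgeR and DESeq2 called 0. Sqle was 15.7 to 165 (median 48.1) in control and 42.1 to 157 (median 112) in light libraries, a log2 fold change of 1.11 ± 0.46 with an adjusted p of 0.20. Fdft1 differed in its spread. The 8 light libraries lay between 181 and 260 and the 6 control libraries between 181 and 645, and the log2 fold change was -0.74 ± 0.29 (adjusted p = 0.19). Without control library 3 the values were 1.17 (adjusted p = 0.16) for Sqle and -0.76 (adjusted p = 0.13) for Fdft1, and still 0 genes of the 8 were called, whereas the genes called in all rose from 218 to 771.

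At the 8-cell stage 0 of the 8 genes were called, against 9.21% of the 13861 tested, and 1 had an unadjusted p under 0.05. This was Insig1, the brake of the pathway, at 68.5, 48.4, 44.1 and 71.8 in the 4 control libraries. The 8 light libraries lay lower, between 16.9 and 55.2 with a median of 22.9, and the groups overlapped. Its log2 fold change was -1.11 ± 0.44 (adjusted p = 0.11). DESeq2 on the recovered reads called it (-1.23, adjusted p = 0.017), and edgeR did not (-1.15, adjusted p = 0.10). Fdft1 in the same libraries was 53.4 to 267 in control and 133 to 600 in light (0.64 ± 0.41).

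In morulae 0 of the 8 genes were called, against 1.18% of the 15217 tested, with 0 of the 8 at an unadjusted p under 0.05 and 0 by edgeR and DESeq2. Hmgcs1 lay between 1.22 and 289 with a median of 44.0 in the 13 control libraries, and between 12.6 and 54.2 with a median of 16.1 in the 6 light libraries. Sqle lay between 1.87 and 244 in control and between 5.12 and 103 in light libraries, with medians of 33.9 and 33.1. The standard error of the log2 fold changes at this stage reached 1.01, for Cyp51. Over all genes, 11 of the 19 libraries of this stage, all control, correlated more with the other group than with their own, whereas the 6 light morulae correlated more with each other.

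In blastocysts 0 of the 8 genes were called on the deposited scale, against 5.34% of the 12743 tested. The background had shifted, with a median log2 fold change of -0.64 over all genes tested, and 8 of the 8 genes lay above it (median 0.74). At an unadjusted p under 0.05 there were 2, Mvd and Sqle. Sqle was 2.10, 48.7 and 0.642 in the 3 control libraries, or 4 reads in library 1 and 1 read in library 3. In the 6 light libraries it lay between 12.0 and 69.5, and only control library 2 fell within that range. The log2 fold change was 2.16 ± 0.85 (adjusted p = 0.13). Mvd was 2.10, 23.7 and 0.642 in the control libraries and 6.62 to 31.5 in the light libraries (2.04 ± 0.77, adjusted p = 0.12). Control library 2 was the highest of the 3 for each of the 8 genes, and without it Sqle was called, with a log2 fold change of 3.65.

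The light blastocysts had 77.8% to 89.3% of their reads on the ribosomal loci and the control blastocysts 73.8% to 81.0%, so the result was also computed on other scales. As CPM outside these loci, the median difference of the 8 genes was 1.52, against -0.03 for all genes, and 2 were called, Mvd (2.94, adjusted p = 0.048) and Fdft1 (1.65, adjusted p = 0.037). Median-ratio scaling and DESeq2 called Fdft1 alone (1.54, adjusted p = 0.041, and 1.44, adjusted p = 0.027), and edgeR called 0 of the 8. The median CPM of Fdft1 was 89.0 in control and 313 in light blastocysts, and that of Sqle 4.29 and 93.0. Insig1 and Hmgcs1 were the lowest of the 8 on the deposited scale, at -0.51 ± 0.50 and -0.10 ± 0.58. Of 6 inner cell mass markers 5 were called lower in light blastocysts, with sums of 130 to 199 in light and 282 to 1888 in control libraries. After median-ratio scaling 2 of the 6 were called, and 4 by edgeR. The trophectoderm markers summed to 2628 to 6789 in light and to 455, 2872 and 6094 in control libraries 1, 2 and 3. Control library 3, the lowest of the 3 in Sqle and Mvd, had the highest sum of these 3. Y-linked genes reached 10 CPM in 6 of 6 light and 0 of 3 control blastocyst libraries. The kind of cell sampled, the presence of Y-linked reads and the light group cannot be told apart here.

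The change from each stage to the next was tested within each group. From the 2-cell to the 4-cell stage 3 of the 8 genes fell in the control libraries (Hmgcs1, Sqle and Insig1) and 4 in the light libraries (Hmgcs1, Sqle, Cyp51 and Insig1), and 0 rose. The lower direction was called for 32.3% of all genes tested in control and 29.0% in light embryos, so a fall at this step was common. At an unadjusted p under 0.05 there were 53.7% of all genes in control and 47.4% in light libraries. Both comparisons use different libraries at each stage.

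Insig1 fell most. Its 7 control libraries lay between 280 and 678 at the 2-cell stage and its 6 at the 4-cell stage between 14.1 and 124, a log2 change of -3.18 ± 0.44 (adjusted p = 5e-06). In the light libraries it went from 249 to 641 down to 15.0 to 90.5 (-2.98 ± 0.36, adjusted p = 2.29e-07). Both other scalings and edgeR called this fall in both groups, the smallest value being -2.46 in the light libraries by edgeR. The difference between the groups in the change was 0.20 ± 0.58.

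Sqle fell from 83.5 to 254 down to 15.7 to 165 in control (-1.57 ± 0.51, adjusted p = 0.017) and from 289 to 402 down to 42.1 to 157 in light libraries (-1.68 ± 0.29, adjusted p = 3.18e-05). The light libraries of both stages did not overlap, whereas the control libraries did. The share of all genes without overlap was not counted for this step. Of the control calls that of Sqle was lost by edgeR (-1.08, adjusted p = 0.080). Hmgcs1 fell by a smaller fold, from a median of 145 to 64.6 in control (-1.09 ± 0.42, adjusted p = 0.038) and from 174 to 97.4 in light libraries (-1.02 ± 0.32, adjusted p = 0.013). Both calls of Hmgcs1 sat at the limit of 2-fold and were lost as CPM (-0.75 and -0.69) and by edgeR (-0.82 and -0.52). They were also lost when any of control 2-cell libraries 8, 11, 12, 17 and 24 or control 4-cell libraries 1, 2 and 6, and any of light 2-cell libraries 10 and 12 or light 4-cell libraries 1, 5 and 6, was left out. Without control 4-cell library 3, each of the 3 control calls held, at -2.87 for Insig1, -1.63 for Sqle and -1.11 for Hmgcs1.

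Cyp51 fell in the light libraries from a median of 60.5 (11.6 to 99.5) to 8.75 (0 to 28.1), a log2 change of -2.54 ± 0.66 (adjusted p = 0.0028). In the control libraries it went from 35.6 (15.1 to 60.0) to 27.8 (0 to 57.1), which was not called (-1.18 ± 0.77). The difference of the changes was -1.37 ± 1.04 with an adjusted p of 0.51, so a difference between the groups was not shown for Cyp51.

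Fdft1 and Lss were not called lower in either group. Fdft1 had a log2 change of 0.71 ± 0.38 in control and of -0.75 ± 0.27 in light libraries, the latter with an adjusted p of 0.026 but under 2-fold. As CPM, where the median of all genes was -0.50 rather than -0.72, Fdft1 and Lss were called higher in the control 4-cell libraries (1.06, adjusted p = 0.0097, and 1.19, adjusted p = 0.032). The difference of the changes of Fdft1 was -1.46 ± 0.47 (adjusted p = 0.072), the smallest adjusted p of the 8 genes in any test of such a difference, and edgeR called it (-1.51, adjusted p = 0.041). Without control 4-cell library 3 it was -1.48 (adjusted p = 0.064). The medians of Fdft1 went from 230 to 402 in control and from 397 to 227 in light libraries.

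**Figure D3:**
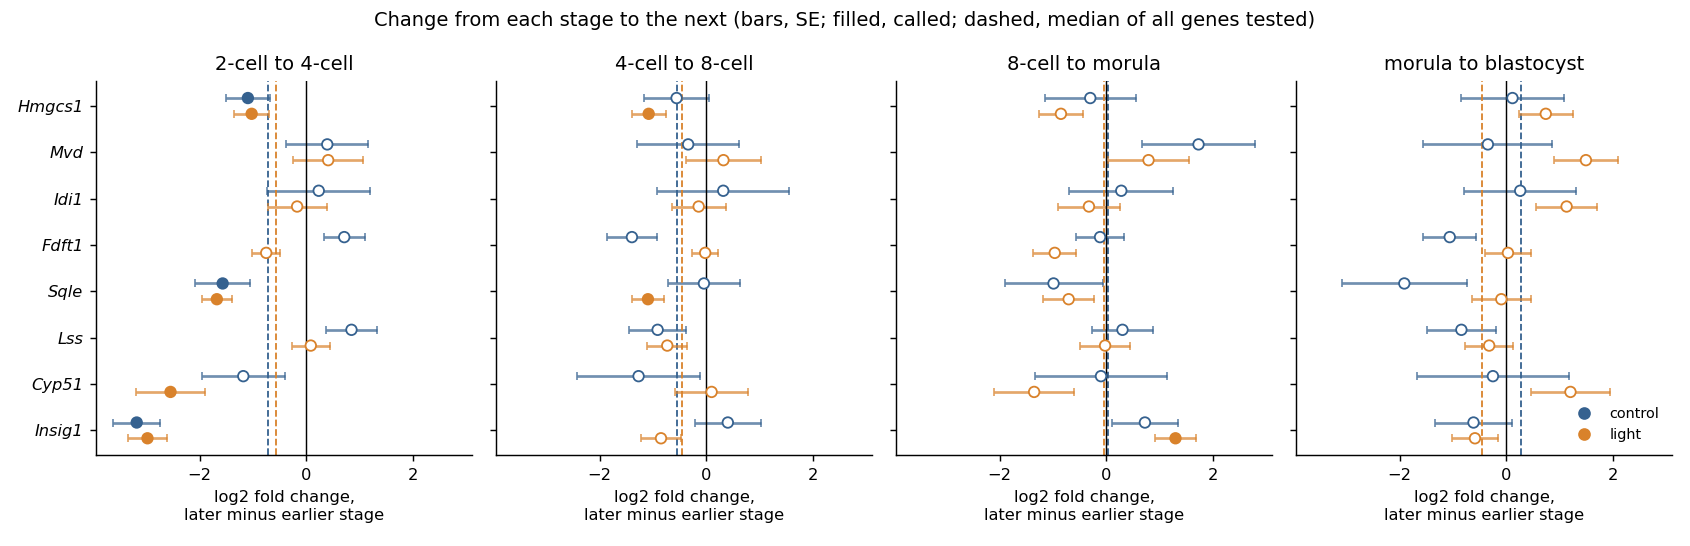
Log2 fold change (later minus earlier stage) of the 8 genes at each of the 4 steps, in control (blue) and light (orange) libraries, with bars of 1 SE, filled points for called genes and dashed lines at the median of all genes tested in each group. The filled points gather at the step from the 2-cell to the 4-cell stage, led by Insig1 at -3.18 and -2.98.

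From the 4-cell to the 8-cell stage 0 of the 8 genes were called in control libraries, against 6.31% of all genes (1 at an unadjusted p under 0.05 and 0 by edgeR). In light libraries 2 were lower, Sqle from a median of 112 to 53.3 (-1.09 ± 0.30, adjusted p = 0.016) and Hmgcs1 from 97.4 to 40.1 (-1.08 ± 0.32, adjusted p = 0.023). There 9.94% of all genes were called lower, with a median of -0.45 over all genes. After median-ratio scaling that median was -0.03 and both calls ended, at -0.50 for Sqle and -0.49 for Hmgcs1, as they did as CPM and by edgeR. The calls of Sqle also ended without light 8-cell library 10 or 12, and those of Hmgcs1 without light 4-cell library 13 or 14 or light 8-cell library 11.

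From the 8-cell stage to the morula 0 of the 8 genes were called in control libraries, against 14.3% of all genes (0 at an unadjusted p under 0.05 and 0 by edgeR). In light libraries 6 of the 8 genes were lower and 2 higher, with a median of -0.52 against -0.05 for all genes. At an unadjusted p under 0.05 there were 3 of the 8, and 1 was called, Insig1. It rose from 16.9 to 55.2 up to 37.4 to 174, with medians of 22.9 and 59.3 (1.30 ± 0.39, adjusted p = 0.028). Of all genes 4.61% were called higher at this step. The rise was called under both other scalings and by edgeR, between 1.43 and 1.54, but was lost without light 8-cell library 12 or light morula library 5.

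From the morula to the blastocyst 0 of the 8 genes were called on the deposited scale, against 11.9% of all genes in control and 20.7% in light libraries (1 of the 8 at an unadjusted p under 0.05 in each group, and 0 by edgeR in control). In light libraries Mvd went from 2.42 to 21.5 up to 6.62 to 31.5 (1.49 ± 0.60, adjusted p = 0.069). The median of all genes was -0.45 there. With median-ratio scaling, which brought it to 0.04, Mvd (2.12), Idi1 (1.79) and Hmgcs1 (1.44) were called higher, as they were as CPM and by edgeR.

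In the test of whether the change between neighbouring stages differed between light and control, limma called 0 of the 8 genes at each step. Of all genes tested, 3.07% were called for the step from the 2-cell to the 4-cell stage, 3.80% for the next, 2.62% for the step to the morula and 1.57% for the step to the blastocyst. In the last step 8 of the 8 differences were above 0, between 0.03 and 1.84 with standard errors of 0.71 to 1.66, and the smallest adjusted p was 0.44. edgeR called 0 of the 8 in the last 3 of these tests, and at an unadjusted p under 0.05 there was 1 of the 8 genes in each of the first 2.

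Mvd and Idi1 were measured near the limit of these libraries. Mvd had a median of 0 reads in the control 2-cell and 8-cell libraries and of 58.0 reads in the light blastocysts. It was listed at 0 in 4 of 7, 3 of 6, 3 of 4, 4 of 13 and 0 of 3 control libraries in the order of the stages, and in 1 of 6, 1 of 8, 2 of 8, 0 of 6 and 0 of 6 light libraries. Idi1 was listed at 0 in 2 of the 7 control libraries of the 2-cell stage and 2 of the 6 of the 4-cell stage. At the 8-cell, morula and blastocyst stages it was at 0 in 1 of 4, 2 of 13 and 0 of 3 control libraries. It was at 0 in 0 of the 34 light libraries. Its highest value was 46.0, in control 4-cell library 6, and its group medians lay between 4.78 and 22.4. Cyp51 was listed at 0 in 4 of the 13 control morulae, where its median was 3.00 reads. The share of all genes with more zeros in control than in light libraries was not counted, so these zeros are no result about the 8 genes.

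The other 15 enzymes, of cholesterol synthesis or, for Ggps1, of a branch from its pathway, were read as a list. At the 2-cell stage 2 of 15 were higher in light libraries and 0 lower, where 10.5% of all genes were called in either direction. Nsdhl, which takes part in the removal of methyl groups at the fourth carbon of sterols, was 0 to 1.04 in control and 2.83 to 19.6 in light libraries (log2 fold change 3.16 ± 0.74, adjusted p = 0.0052). Ebp, a sterol isomerase, was 0 to 32.3 in control and 21.0 to 144 in light libraries (2.34 ± 0.71, adjusted p = 0.030). The median over the 15 was 0.78, against 0.00 for all genes, and edgeR called 1 of them. At the 8-cell stage 1 of 13 tested was higher, Acat2 (2.02 ± 0.63, adjusted p = 0.043), and in morulae 1 of 15, Ggps1, which makes a lipid used in protein prenylation (2.94 ± 0.74, adjusted p = 0.039). edgeR called neither. At the 4-cell and the blastocyst stage limma called 0 of 14, with 1 and 4 at an unadjusted p under 0.05, and edgeR called 0. Median-ratio scaling called 1 at the 4-cell stage. The list's median was 0.29, 0.52 and 0.01 at the 4-cell, 8-cell and morula stages, against 0.13, 0.16 and 0.10 for all genes. In blastocysts it was -0.98, against -0.64 for all genes and 0.74 for the 8 genes. For the difference in the change from morula to blastocyst it was -0.66, against -0.63 for all genes and 0.98 for the 8 genes.

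Between the 2-cell and the 4-cell stage 5 of the 15 fell and 2 rose in control libraries, and 3 fell and 1 rose in light libraries. Of all genes tested, 32.3% were called lower in control and 29.0% in light libraries. Called higher were 2453 of 17725 genes in control and 1283 of 17258 in light libraries. Nsdhl went from 2.83 to 19.6 in light 2-cell libraries to 0 in 7 of the 8 light 4-cell libraries (-3.35 ± 0.65, adjusted p = 0.00015), and Mvk, mevalonate kinase, from 4.54 to 57.0 down to 0 to 3.53 (-2.87 ± 0.69, adjusted p = 0.0014). The difference between the groups in the change was called for Nsdhl (-3.08 ± 0.74, adjusted p = 0.019), but edgeR did not call it. From the morula to the blastocyst 3 of the 15 rose and 1 fell in light libraries, where 20.7% of all genes were called in either direction. In control libraries 2 of the 15 rose and 0 fell, where 11.9% of all genes were called. By edgeR 4 were called in light and 0 in control libraries. In the light libraries Mvk rose from 0 to 2.42 up to 8.83 to 37.4 (3.83 ± 0.66, adjusted p = 7.41e-05). Lbr, which holds a sterol reductase and a lamin-binding part, fell there (-1.71 ± 0.39, adjusted p = 0.0018).

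From the 2-cell to the 4-cell stage 4 of the 6 regulators fell and 1 rose in control libraries, and 3 fell in light libraries, where 32.3% and 29.0% of all genes were called lower. Median-ratio scaling and edgeR each called 5 in control, and 2 and 1 in light libraries. At the later steps limma called 0 in control and 2 at each step in light libraries, and the 2 of the step to the 8-cell stage were lost under median-ratio scaling and by edgeR. Srebf2, which encodes the activator SREBP-2, was 10.7 to 44.8 in control 2-cell libraries and was listed at 0 in 4 of the 6 control 4-cell libraries, with 4.10 as the highest (-4.30 ± 0.65, adjusted p = 1.45e-05). In light libraries it went from 9.08 to 31.1 down to 0 to 24.7, with overlap (-1.91 ± 0.74, adjusted p = 0.042). Scap, its escort, fell from 213 to 814 down to 44.6 to 110 in control (-2.43 ± 0.37, adjusted p = 1.55e-05) and from 122 to 443 down to 51.5 to 145 in light libraries (-1.43 ± 0.33, adjusted p = 0.0010). Insig2, the paralogue of Insig1, fell in control libraries (-2.96 ± 0.68, adjusted p = 0.0012). For the difference of this change between light and control, limma called 0 of the 6 regulators and edgeR called 1. There 2 of the 6 had an unadjusted p under 0.05 by limma. Between light and control, 1 of the 6 regulators was called at any stage, Mbtps1, the first of the proteases, at 60.5, 83.1 and 87.3 in control and 8.10 to 21.7 in light blastocysts (-2.40 ± 0.53, adjusted p = 0.0135). It was not called after median-ratio scaling or by edgeR, and 5.34% of all genes were called in blastocysts.

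Of 14 genes of uptake, transport and storage, 1 of 11 tested was lower in light 4-cell libraries, Npc2, which hands cholesterol out of lysosomes, at 164 to 264 against 261 to 581 in control (-1.12 ± 0.27, adjusted p = 0.035). Of all genes 1.45% were called at this stage in either direction. In blastocysts 2 of 11 were lower, Soat1, which esterifies cholesterol for storage, at 2.88 to 118 against 143 to 933 (-3.62 ± 0.75, adjusted p = 0.011), and Stard3, at 0 to 8.91 against 11.6 to 18.4 (-2.79 ± 0.80, adjusted p = 0.044). Of all genes 5.34% were called there, 635 of the 680 lower, with a median of -0.64, and median-ratio scaling and edgeR each called 1 of the 11. Stard4, a carrier of cholesterol and a target of SREBP, was 0 in each of the 4 control 8-cell libraries and reached 124 in control morulae, with 2 of 13 at 0 (adjusted p = 0.0078). In light libraries it rose at the same step from 0 to 31.4 up to 39.8 to 109 (3.28 ± 0.62, adjusted p = 0.00072). Insig1 rose there too, whereas 6 of the 8 genes were lower. Npc2 rose 2.58 ± 0.43 on the log2 scale from the 2-cell to the 4-cell stage in control libraries (adjusted p = 3.94e-05), and the difference of this change between the groups was called (-2.16 ± 0.49, adjusted p = 0.015).

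Among libraries of the same group the pairs of the 8 genes had mostly weak positive correlations. After the group means had been removed, 28 of the 28 pairs had a correlation above 0 over the 67 libraries, with a median of 0.28. The highest was 0.56 for Hmgcs1 and Lss and the lowest 0.04 for Fdft1 and Cyp51. As CPM 27 of 28 were above 0, with a median of 0.24. Since the genes of a library share its depth and its scaling, these are descriptions with no test. The mean of the 8 genes, rather than pairs, had a median correlation of 0.13 with 8983 other genes on the deposited scale and of 0.03 as CPM. It was above 0 for 7048 of the 8983, and for 5114 of 8981 as CPM. The highest of all were Ubb (0.67) and, as CPM, Bid (0.57). Among the other enzymes, Msmo1, a sterol methyl oxidase, reached 0.61, and 0.54 as CPM, whereas Dhcr7 reached 0.09 and -0.01.

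Control morulae 18 and 21 stood out in these genes, and were picked after their values had been seen. Hmgcs1 was 182 and 289 in them, and 74.2 at most in the other 11. Sqle was 244 and 129, against 74.3 at most, and Lss was 336 and 200, against 94.1. Insig1 was 436 and 315, against 288. Both libraries stood above all 11 others for 4 of the 8 genes, and for 4 of the other 15 enzymes, among them Msmo1 and Hsd17b7. The same held for 1.77% of 14105 genes with a mean of at least 1 in these morulae. It held for the same 4 of the 8 genes as CPM. Fdft1 (248 and 162) and Mvd (15.5 and 11.6) lay within the range of the others. These libraries ranked 9 and 11 of 13 in reads outside the ribosomal loci, and their trophectoderm markers summed to 1115 and 1652, the highest of the 13, with the other 11 between 171 and 948. The part of this in the values of the 4 genes was not tested. Without both, the median light-against-control difference of the 8 genes in morulae went from -0.29 to -0.06, and 0 were called.

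**Figure D4:**
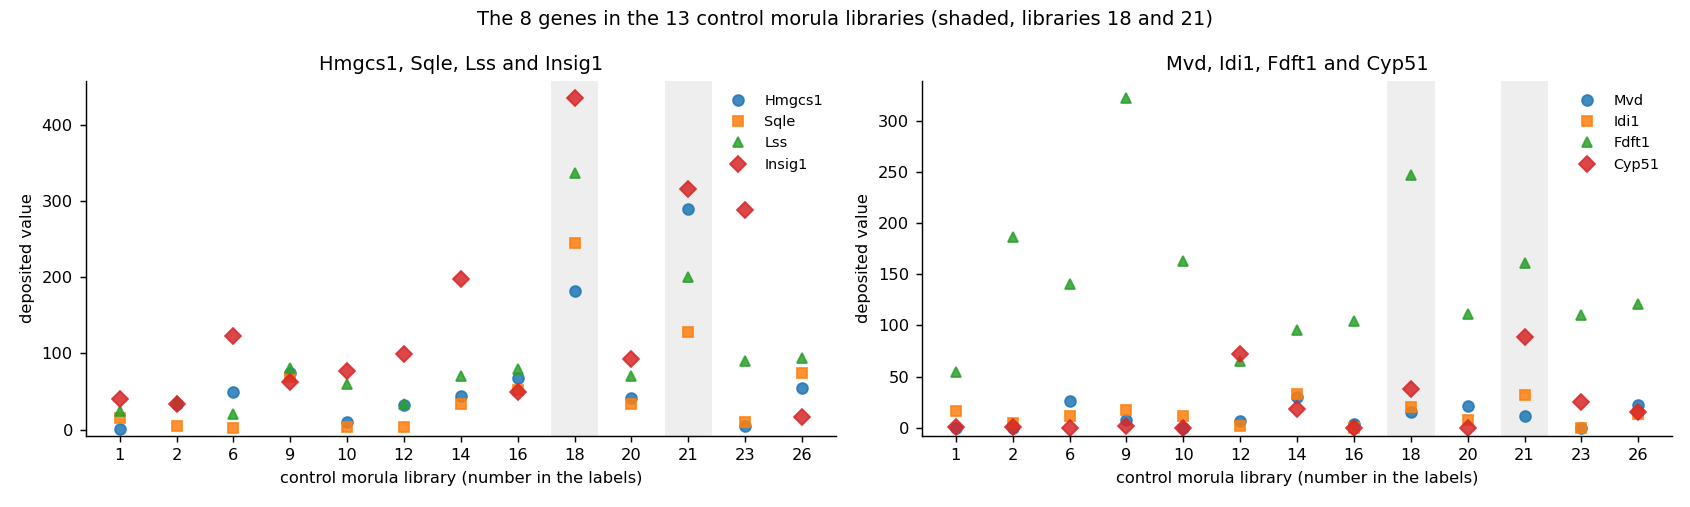
Deposited values (linear axis from 0) of the 8 genes in the 13 control morula libraries, named by their number in the labels, with libraries 18 and 21 shaded. In the left panel Hmgcs1, Sqle, Lss and Insig1 are highest in the shaded libraries, and in the right panel Mvd and Fdft1 are not.

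Over the 10 means of stage and group, the pattern of the mean of the 8 genes was most like those of Tdrd12 (Pearson r = 0.95), Ldhc (0.94), Zfp553 (0.94), Tslp (0.93) and Arpc5l (0.93), out of 12971 genes with a group mean of at least 10. The points are 10 means of 3 to 13 libraries, and a like pattern says no more than that. Against the mean of the other 7, Cyp51 (0.85), Hmgcs1 (0.83) and Sqle (0.83) followed it most closely, Fdft1 (0.70), Insig1 (0.54) and Lss (0.49) less so, and Idi1 (-0.05) and Mvd (-0.53) ran apart. The mean of the 8 genes on the log2(value + 1) scale was highest in the 2-cell libraries, 5.63 in control and 6.28 in light, and lowest in control blastocysts, 4.16.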

How the data were processed

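RNA of 67 libraries was measured by SMART-seq2. Per the labels' processing notes the authors used HISAT2, HTSeq 0.9.1 and mm9. The signal values deposited by the authors are reads over a size factor set per library. The study's methods name RPKM, but no division by length was found, and whole reads were recovered within 0.01 for all values of the 8 genes and, in each library, for 99.97% or more of all genes (11 genes held a value that was not whole in some library). Closest pairs of libraries within a group differed by more than sampling noise (chi-square per degree of freedom of at least 5.48).

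Libraries were grouped by stage and group from the labels, each as 1 replicate with no covariate. limma 3.58.1 (eBayes with trend, R 4.3.3) was run on log2(value + 1), where 1 is the pseudocount. A gene was tested when 3 or more of the libraries compared exceeded a value of 1. p-values were adjusted over all genes tested. All 8 genes passed the filter in each comparison. The thresholds were 0.05 and 2-fold. SE is that of limma, and exon lengths and overlaps are from GENCODE M21 (GRCm38), promoters from RefSeq.

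The alternatives were a pseudocount of 0.1, no filter, scaling by the median ratio, CPM outside CT010467.1 and Gm42418, 1 fit over all libraries, DESeq2 1.42.0 and edgeR 4.0.16 (TMM, quasi-likelihood) run on recovered reads, a block for the replicate number, and leaving out every library singly. Leaving out control morulae 18 and 21 together was added after the data were seen. The tests were tested on simulated data. The 8 genes and the other lists were chosen with earlier results of these data known. All 8 genes are named, together with, for each comparison, some of the other called genes of the pathway among the 6 with the smallest p. Cumulus, oocyte, sperm, trophectoderm, inner cell mass and 2-cell markers were read as lists. Sperm markers summed to 10.4 at most in any library. Some genes of these lists are counted but not reported by name here.

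Same-numbered libraries did not deviate together: the correlation of their deviations lay between -0.09 and 0.07 in 29 pairs, none over 0.1. Precision is limited by depth: with 318177 to 2867034 reads outside the ribosomal loci, a value of 0 allows up to 3 reads, for counting error only.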

Additional observations from a re-analysis of the deposited data

Results flagged for a closer look

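For 64 combinations of 1 of the 8 genes and a group of 4 to 10 libraries, the highest and the lowest value were compared with the rest. The comparison was made on the log2(value + 1) scale, and the values below are as deposited. By Dixon's test at the 95% level 6 values stood apart. With normally distributed values chance alone does this in about 1 in 20 combinations, but groups with values listed at 0 are not distributed so.
Of these 3 were values of Mvd. Control 2-cell library 9 was highest at 11.0 (16 reads), with the next at 1.74. Control 8-cell library 4 was highest at 12.5 (30 reads), with the others at 0. Light blastocyst library 26 was lowest at 6.62, with the next at 17.9. Sqle was lowest in light 4-cell library 6, at 42.1 against 101 in the next. Cyp51 was listed at 0 in light 8-cell library 9, with the next at 4.98. Insig1 was highest in light morula library 5, at 174 against 66.6 in the next, and the rise of Insig1 to the light morula was not called without this library.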

How the results depend on the processing

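Counts are of the 8 genes called. For light against control, Sqle at the 2-cell stage was called with each library left out and under each alternative but 2: 1 fit over all libraries and the replicate block called 0. In 8-cell embryos DESeq2 called 1. In blastocysts median-ratio scaling called 1, CPM 2 and DESeq2 1, and leaving out 1 library gave 0 to 1. From the 2-cell to the 4-cell stage edgeR called 1 in control rather than 3, and leaving out 1 library gave 2 to 3 in control and 3 to 4 in light. From the 4-cell to the 8-cell stage in light libraries median-ratio scaling, CPM, edgeR and the block each called 0 rather than 2, and leaving out 1 library gave 1 to 3 (0 to 1 in control). From the 8-cell stage to the morula leaving out 1 light library gave 0 to 2. From the morula to the blastocyst in light libraries median-ratio scaling, CPM and edgeR each called 3 rather than 0, and leaving out 1 library gave 0 to 1. For the difference in the first step edgeR called 1, and leaving out 1 library gave 0 to 1. Leaving out control morulae 18 and 21, chosen after seeing the data, called 0 in each of the 3 comparisons that use them. No direction was reversed among the called genes.

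Replicate numbers did not pair the libraries. With the number as a block, 0 of the 8 genes were called at each comparison that shared 2 or more numbers, among them light 2-cell to 4-cell (0 rather than 4) and light 8-cell to morula (0 rather than 1), and Sqle at the 2-cell stage was 1.16 (adjusted p = 0.159). This block left 0 genes of the whole table called in 6 comparisons. No paired analysis was possible because fewer than 2 numbers were shared in the other 4 comparisons.

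Without control blastocyst 2, 89 genes of the whole table were called in blastocysts rather than 680. Depth limits Mvd, Idi1 and Cyp51 most, and in blastocysts the 3 control libraries limit every comparison.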
